A study of Mus musculus with 2 samples.

Results

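The liver X receptors (LXRs), the genes they switch on for sterol export, and the SREBP factors that govern sterol synthesis were examined in bone marrow-derived macrophages (BMDMs) kept with medium or with the supernatant of apoptotic cells. The genes were named by their known roles, with earlier results of these data known. Every probe set that the array's annotation gives to 1 gene alone was taken. Of 9 genes named, 8 had such probe sets, 13 in all, out of 34958 single-gene probe sets of 18194 genes. These were Abca1, Abcg1, Apoe, Pltp, Nr1h3, Srebf1, Srebf2 and Mylip, and Nr1h2 was not analysed here. The question was whether soluble signals from apoptotic cells touch, within 1 hr, the sterol response that macrophages mount when they engulf dying cells.

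Both conditions used BMDMs from female C57BL/6J mice aged 8 weeks, grown for more than 7 days with M-CSF, and 1 array was hybridized for each. Control BMDMs received RPMI medium with 10% FCS for 1 hr. The others received, for 1 hr, the supernatant of W3, a Fas-bearing line of mouse T cells. The W3 cells had been exposed to Fas ligand for 30 min, washed, and left for 60 min in RPMI with 1% FCS. Serum, which carries lipoprotein cholesterol, was thus at 10% in the control and 1% in the medium of the W3 cells. The effect of apoptotic signals therefore cannot be told apart from that of serum, nor from an effect of W3 cells as such, since no array here holds supernatant of living ones. No difference below has a replicate, an SD or a p-value.

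LXRs are nuclear receptors that bind oxysterols, the oxidized derivatives of cholesterol, and work on DNA as partners of retinoid X receptors. When sterol accumulates, as in a macrophage that has taken up a dead cell, they raise genes that move cholesterol out of the cell. SREBP factors answer the opposite state and raise genes of sterol and fatty acid synthesis when sterol is scarce. In mouse macrophages Abca1 is also known to be raised by cyclic AMP analogues.

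The response element of LXRs is a direct repeat, AGGTCA followed after 4 bases by a second AGGTCA. It is best known from the promoters of Abca1 and Srebf1, so these are shown. RefSeq promoter windows of 300 bases, 250 before and 50 after a start site, were found for 8 of the 9 genes, and there was none for Abcg1. With up to 3 mismatches in the 12 bases of the repeats, on either strand, 2 of the 13 windows held the repeat. These were the Abca1 window and 1 of 3 windows of Srebf1. Among all 32851 mouse windows, 21.9% held such a match, so it is a common feature. The 250 bases before each start are given 5′ to 3′ on the strand of the gene (GRCm38.p6), with the match in capitals, which read as the complement of the repeat. Both genes lie on the minus strand.

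Abca1, chr4:53159896-53160145, minus strand: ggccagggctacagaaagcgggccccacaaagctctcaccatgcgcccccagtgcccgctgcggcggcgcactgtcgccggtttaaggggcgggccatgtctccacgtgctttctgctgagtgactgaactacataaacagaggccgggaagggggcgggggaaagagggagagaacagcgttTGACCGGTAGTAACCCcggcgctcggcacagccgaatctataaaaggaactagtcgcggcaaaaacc
Srebf1, chr11:60210472-60210721, minus strand: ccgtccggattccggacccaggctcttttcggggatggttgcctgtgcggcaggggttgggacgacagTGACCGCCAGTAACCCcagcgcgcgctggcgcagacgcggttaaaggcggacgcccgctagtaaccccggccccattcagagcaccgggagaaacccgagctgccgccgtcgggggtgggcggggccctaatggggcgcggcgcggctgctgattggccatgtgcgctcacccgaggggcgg

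The Abca1 match lies from 67 to 52 bases before the start (chr4:53159947-53159962) and the Srebf1 match from 182 to 167 bases before it (chr11:60210638-60210653). The matches share 14 of 16 bases. No window of the 8 genes held the cyclic AMP response element TGACGTCA, found in 1.79% of all windows. None held the core of the sterol regulatory element, TCACCCCAC, found in 0.551%. The E-box CACGTG, found in 7.15%, occurs in the Abca1 window 147 bases before the start. Elements other than the repeat were sought without mismatches, so near matches to them were not counted. A match or its absence describes the letters of these windows only.

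All 13 probe sets were brighter on both arrays than 38.4, the floor used here for dim signals. The values are MAS5 signals, intensities on a linear scale. Signals of different probe sets depend on the probes, so genes are compared by the ratio of supernatant to medium, on the brightest probe set of each gene. None of the 8 genes was 2-fold higher or 2-fold lower with the apoptotic cell supernatant. Of 11977 genes measured on the arrays, 0.960% read 2-fold or more above medium and 0.843% read 2-fold or more below it. Of the 13 probe sets 0 were 2-fold higher and 0 were 2-fold lower, beside 0.974% and 1.06% of the 22172 single-gene probe sets measured. The 13 ratios ran from 0.715 to 1.21. For scale, the orphan receptor gene Nr4a1, which the study followed, read 212 and 7584. Thbs1, another gene that the study followed, read 56.2 and 1175 on its brighter probe set and 47.5 and 420 on the other.

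**Figure D1:**
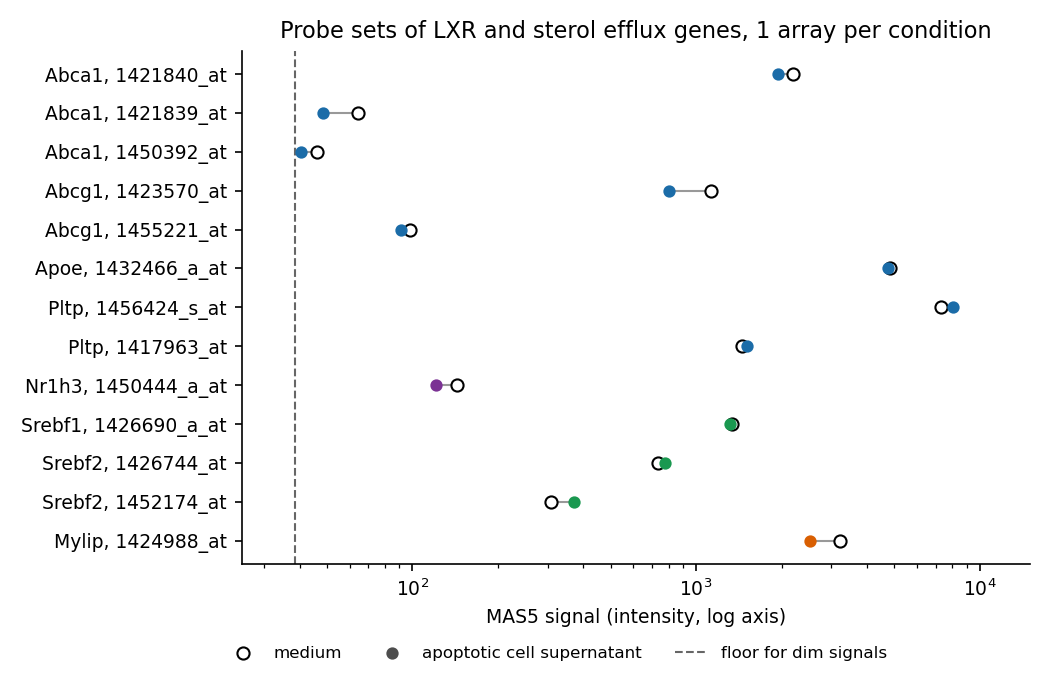
MAS5 signal (intensity, log axis) of each of the 13 probe sets for medium (open symbols) and apoptotic cell supernatant (filled symbols, coloured by role of the gene), 1 array each. The dashed line is the floor of 38.4. The longest line above a signal of 100 is that of the bright Abcg1 probe set, from 1126 to 805, and all 13 pairs lie right of the floor.

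The sterol pumps Abca1 and Abcg1 read lower with the supernatant on each of their probe sets. Abca1 encodes the transporter that loads cholesterol and phospholipid onto lipid-poor apolipoprotein A-I. Its brightest probe set read 2191 with medium and 1947 with the supernatant, a ratio of 0.888. Its other probe sets were close to the floor, at 64.5 and 48.5 on one and 46.0 and 40.3 on the other, so their ratios of 0.752 and 0.876 rest on dim signals. Abcg1 encodes the transporter that passes cholesterol to mature HDL particles. Its brighter probe set read 1126 and 805, a ratio of 0.715, which was the lowest of the 8 genes (log2 ratio -0.48). The other Abcg1 probe set, at 98.3 and 90.9, had a ratio of 0.925. Thus the size of the Abcg1 difference depended on the probe set, and its log2 ratio was -0.30 when both were averaged on the log2 scale.

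The secreted lipid carriers had ratios near 1. Apoe encodes apolipoprotein E, which macrophages release to carry cholesterol away, and read 4840 and 4742, a ratio of 0.980. Pltp encodes the phospholipid transfer protein of plasma, which remodels HDL. Its bright probe set read 7276 and 8018, a ratio of 1.10, and the other 1450 and 1506, a ratio of 1.04. Pltp was thus the only transport gene of the 4 to read higher with the supernatant, on both its probe sets.

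Nr1h3, the gene of LXRα, had a dim signal, 143 with medium and 121.5 with the supernatant, and a ratio of 0.850. Those signals were 3.72 and 3.16 times the floor. Ratios scatter widely among genes this dim. Among 2292 genes whose mean signal was within 2-fold of that of Nr1h3, the 5th and 95th percentiles of the log2 ratio were -0.79 and 0.62, and its own value was -0.23.

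The SREBP genes differed little between the arrays. Srebf1 gives SREBP-1a and SREBP-1c, the latter itself an LXR target and a driver of fatty acid synthesis. Its probe set read 1341 and 1314, a ratio of 0.980. The labelling reads transcripts from their 3′ ends, so transcripts from the different starts of Srebf1 were not separated. Srebf2, whose product raises cholesterol synthesis, read 733 and 777 on its brighter probe set, a ratio of 1.06, and 307 and 372 on the other, a ratio of 1.21. Both Srebf2 probe sets read higher with the supernatant. SREBP factors are made as inactive membrane proteins and activated by cleavage, which an mRNA signal does not measure.

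Mylip encodes Idol, a ubiquitin ligase that LXRs raise and that marks the LDL receptor for degradation. Its single probe set read 3215 with medium and 2514 with the supernatant, a ratio of 0.782 (log2 ratio -0.35). Those signals were 83.7 and 65.5 times the floor, far above the dim range in which Nr1h3 lay.

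In order of log2 ratio the genes ran Abcg1 (-0.48), Mylip (-0.35), Nr1h3 (-0.23), Abca1 (-0.17), Apoe (-0.03), Srebf1 (-0.03), Srebf2 (0.08) and Pltp (0.14). No neighbours in this order stood more than 0.14 apart. The SD of log2 ratios among probe sets that share a gene, from 5196 genes, was 0.28. It comes from the same pair of arrays, so it does not show whether this order would hold on further arrays. The ends of the order stood 0.62 apart. The median was -0.10, beside -0.02 over all measured genes, and 6 of the 8 ratios were below 1, as were 54.6% of those of all measured genes. Each of the 4 genes with several probe sets had all of them on the same side of 1, the dim Abca1 ones included. How often this held among all genes with several probe sets was not counted.

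Ratios of bright genes scattered less than those of dim ones, and against genes of like signal Abcg1 and Mylip stood low. Among 3696 genes with a mean signal within 2-fold of that of Abcg1, 48 had a lower log2 ratio and the 5th percentile was -0.32. This rank is that of the brighter Abcg1 probe set alone, and -0.30, the log2 ratio with both averaged, is above that percentile. For Mylip, 35 of 2429 genes were lower and the 5th percentile was -0.22. Abca1 had 330 of 2930 genes below it, and at the upper end Pltp had 96 of 1161 above it. The 6 genes other than Abcg1 and Mylip lay between the 5th and 95th percentiles of genes with like signal. These ranks describe a single pair of arrays, and whether Abcg1 and Mylip would differ between further arrays was not tested.

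**Figure D2:**
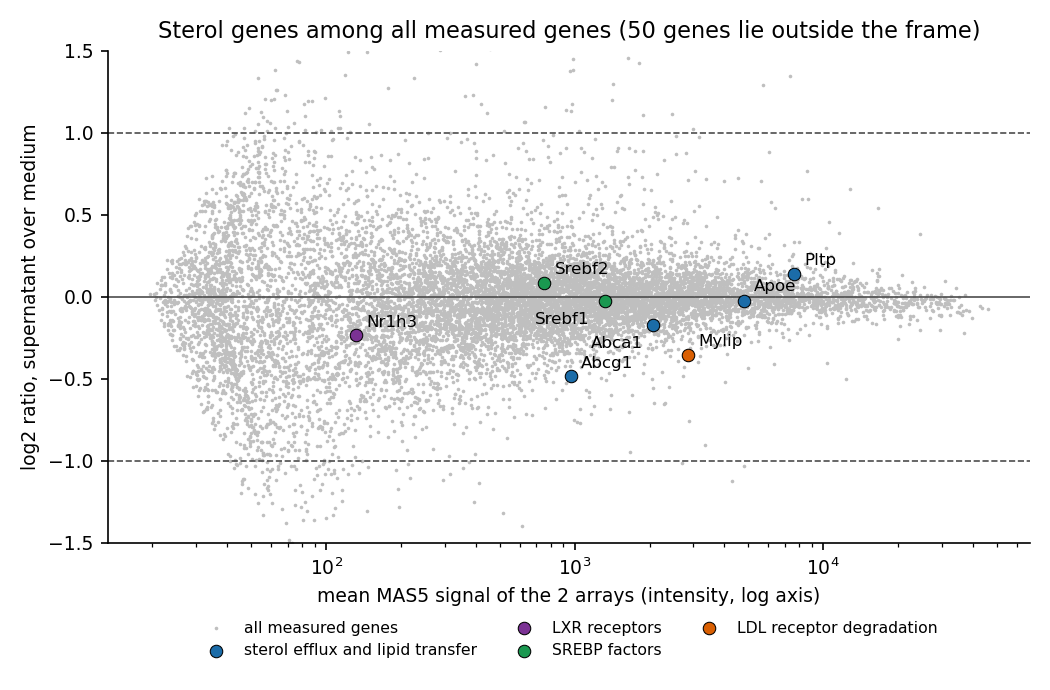
Log2 ratio of floored MAS5 signals, supernatant over medium, against the mean signal of the 2 arrays (intensity, log axis) for all 11977 measured genes (grey) and the 8 sterol genes (coloured by role), with the 2-fold limits dashed and 50 genes outside the frame. Abcg1 (-0.48, on its brighter probe set) and Mylip (-0.35) lie at the lower edge of the cloud for their signal. Nr1h3 (-0.23) lies within the wide scatter of dim genes.

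Genes around this set were described by 7 lists of the pathway, with 80 genes measured of 93 on the array under a single name. On the brightest probe set of each gene 2 were at least 2-fold higher, Mertk and Ch25h, which is 2.5% beside 0.960% of all measured genes. By the same measure 1, Ppargc1b, was at least 2-fold lower, 1.25% beside 0.843%. With signals under the floor raised to it, the other 77 were within 2-fold on that probe set. Mlxipl, Apoc1 and Cyp46a1 were above the floor on 1 array alone, so the size of their differences is not known. Hsd17b7 and Ncoa2 each had a dimmer probe set past 2-fold, described with their lists. The median log2 ratio of the 80 was -0.02, the same as over all measured genes.

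Of 13 other LXR target genes measured, 1 was 2-fold higher and 0 were 2-fold lower, with a median log2 ratio of -0.02. Mertk, a receptor kinase by which macrophages bind apoptotic cells, read 471 and 1050, 2.23-fold higher. Abcg8, which works with Abcg5 to export plant sterols, read 105 and 80.2, a ratio of 0.766. Apoc2, the activator of lipoprotein lipase, read 297 and 241, a ratio of 0.813. Mlxipl, the gene of ChREBP, read 47.3 with medium and was under the floor with the supernatant, so no size is given. Apart from Mertk, the highest ratio in this list was that of Apoc1, named after its value was seen, which read 11.1 and 44.4 and so was under the floor with medium.

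The enzymes that make oxysterols supply the ligands of LXRs. The list of oxysterol enzymes, some of which make oxysterols and others convert them further, had 8 genes on the array, and 3 were measured. Ch25h, which makes 25-hydroxycholesterol, read 1979 and 4017, 2.03-fold higher. That value was just past the threshold, and on the log2 scale it ran from 1.01 to 1.06 under the other settings tried. Cyp27a1, which makes 27-hydroxycholesterol, read 250.2 and 243, a ratio of 0.972. Cyp46a1, which makes 24-hydroxycholesterol in brain, was above the floor in the supernatant array alone (20.5 and 44.7), so no size is given. Mertk and Ch25h had 1 probe set each.

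Of 14 LXR partners and coregulators measured, 0 were 2-fold higher and 1 was 2-fold lower on the brightest probe set, with a median log2 ratio of -0.09. Ppargc1b encodes PGC-1β, a coactivator of LXR and SREBP, and read 257 and 124 on its single probe set, 2.08-fold lower. Its log2 ratio of -1.06 was -0.996 after quantile normalization, -0.98 with loess and -0.87 with the floor added as a pseudocount, all short of 2-fold. Nrip1, the gene of the corepressor RIP140, read 646 and 905, a ratio of 1.40, and its dimmer probe sets above the floor had ratios from 1.05 to 1.18. Ppard had a ratio of 0.823 (138 and 114) and the acetyltransferase gene Ep300 one of 0.867 (1827 and 1585). The receptors that pair with LXRs, named after their values were seen, read 195 and 205 for Rxra and 481 and 438 for Rxrb. A second Rxra probe set of similar signal read 148 and 217, a ratio of 1.46 against 1.05 on the first. Ncoa2, a coactivator gene also named after its values were seen, had a ratio of 1.03 on its brightest probe set (1612 and 1668) and 0.759 on another (294 and 223). A dim Ncoa2 probe set read 78.3 with medium and was under the floor with the supernatant, at least 2.04-fold lower.

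On the brightest probe set of each gene, SREBP processing and the synthesis pathways held none that differed 2-fold. Of 7 processing genes measured the median log2 ratio was 0.07. Insig1 and Insig2, whose products hold the SREBP precursor in the endoplasmic reticulum, had ratios of 1.16 and 1.16. Mbtps2, a protease that releases SREBP, read 2691 and 2902, and Fbxw7, which marks active SREBP for degradation, 678 and 641. Of 17 cholesterol synthesis genes the median was 0.02. Mvk, the gene of mevalonate kinase, had the lowest ratio, 0.742 (227 and 169), and 0.963 on its other probe set. Tm7sf2 (1.13), Nsdhl (1.13) and Cyp51 (1.10), enzymes of the later steps, had the highest ratios. On these brightest probe sets the 17 ratios lay between 0.742 and 1.13. The probe sets of Hsd17b7, which encodes a sterol ketone reductase and was named after its values were seen, disagreed. The brightest read 494 and 522, a ratio of 1.06, while dimmer ones read 205 and 99.1, 2.07-fold lower, and 184 and 159, a ratio of 0.862.

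Of 12 fatty acid synthesis genes measured the median log2 ratio was -0.02. Elovl6, which lengthens palmitate, had a ratio of 1.49 on its brightest probe set by mean signal (190 and 283) and 1.08 on another of similar signal. Acaca, which makes malonyl-CoA, had a ratio of 0.678 (342 and 232), while a dimmer probe set read higher, at 53.2 and 74.4. The probe sets of Acaca thus disagreed in direction. Fads2, a desaturase, had a ratio of 0.812 on its brightest probe set and 0.934 and 0.981 on others, and Acss2, which activates acetate, one of 1.10. Scd1, Scd2 and Fasn belong to this list and to the other LXR targets, and their ratios, named after they were seen, were 0.994, 1.07 and 1.05.

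Of 17 genes of sterol uptake, storage and trafficking measured, the median log2 ratio was -0.02 and none differed 2-fold on any probe set. Lipe, the hormone-sensitive lipase, had the highest ratio, 1.58 (145 and 229). Scarb1, the HDL receptor SR-BI, had a ratio of 1.19 (1378 and 1640) on its brightest probe set, and 0.980 and 1.04 on others of similar signal. Gramd1a, a carrier of sterol from the plasma membrane, had a ratio of 1.13. On brightest probe sets Cav1, the caveolin gene, had the lowest ratio, 0.860 (1757 and 1511). Some dimmer probe sets of other genes read lower still. The lowest ratio was 0.644 (343 and 221), for Lrp8, a lipoprotein receptor gene named after its values were seen. The brightest Lrp8 probe set went the other way, with a ratio of 1.07 (602 and 643).

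**Figure D3:**
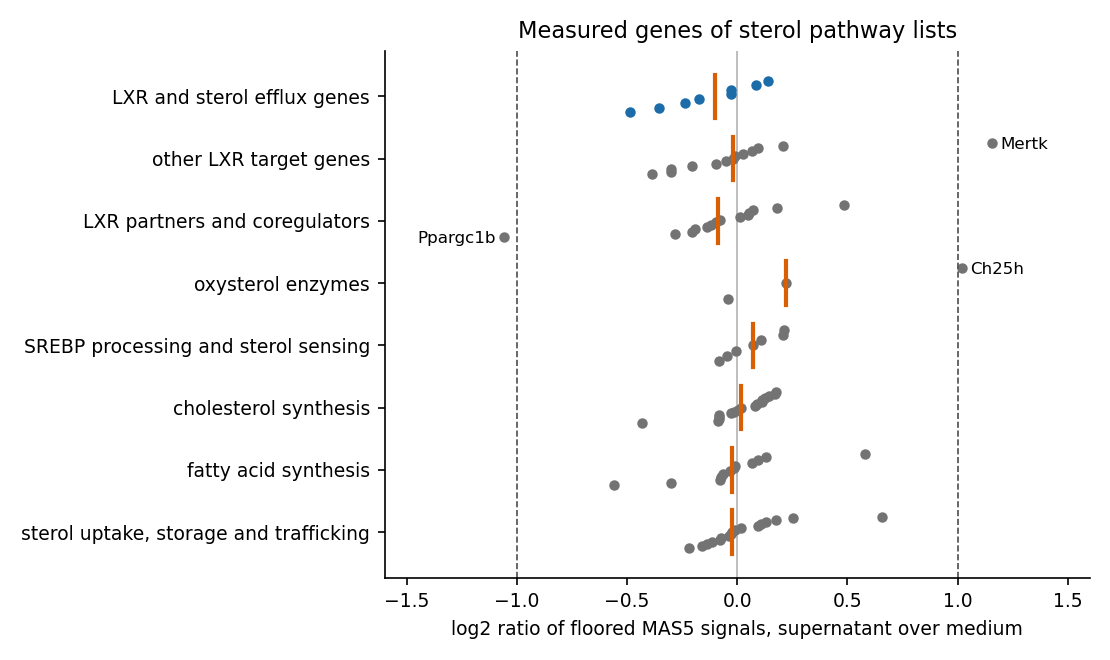
Log2 ratio of floored MAS5 signals, supernatant over medium, of each measured gene (points) in the LXR and sterol efflux set and in 7 lists of the pathway, with the median of each as an orange bar and the 2-fold limits dashed. Mertk (1.16) and Ch25h (1.02) lie right of the lines and Ppargc1b (-1.06) left of them, while the 17 cholesterol synthesis genes, each on its brightest probe set, lie between -0.43 and 0.18. A dimmer Hsd17b7 probe set at -1.05 is not drawn.

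The arrays read as macrophages. All 9 macrophage markers were measured, with a summed signal of 129152 with medium and 131872 with the supernatant. Of their ratios 6 were below 1 and 3 above it, the highest that of Cd14, 1.30 (21224 and 27646). Of 13 T cell markers 9 were under the floor on both arrays, Cd3d, Cd3e, Cd3g and Cd4 among them. The others were above it on their brightest probe sets. Cd28 read 393 and 283, Zap70 208 and 313, and Cd5 65.9 and 42.8. Cd8a read 72.9 with medium and was under the floor with the supernatant. The summed signal of all 13 was 883 and 753. Of 9 neutrophil markers 5 were measured, with sums of 690 and 902. S100a9 (5.85 and 73.0), Elane (9.89 and 51.8) and Ngp (19.9 and 51.5) were above the floor with the supernatant alone. S100a8 read 391 and 462 and Mmp8 241 and 229, while Mpo, Ltf, Camp and Prtn3 were under the floor on each array. Of 6 dendritic cell markers 3 were measured, with sums of 253 and 261, and of 9 stromal and adipocyte markers 2, with sums of 545 and 578. The part of other cell types in the ratios was not tested. Over all probe sets the arrays had median signals of 53.0 and 49.3, and Gapdh and Actb had ratios of 0.963 and 0.967. In an RNA extract of many cells, fewer cells expressing a gene and less of its RNA per cell cannot be told apart.

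**Figure D4:**
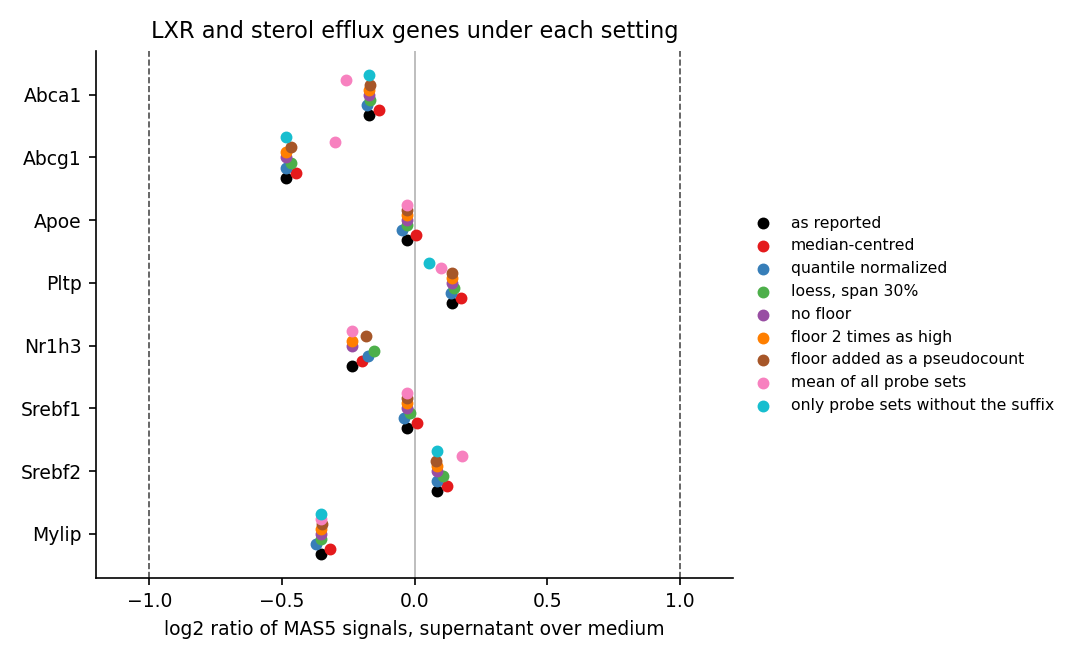
Log2 ratio of each of the 8 genes, supernatant over medium, as reported (black) and under 8 other settings (colours), with dashed lines at a 2-fold difference. No point reaches a dashed line, and Abcg1 shows the widest range, from -0.49 to -0.30.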

How the data were processed

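RNA of BMDMs after 1 hr in medium or in apoptotic cell supernatant was labelled with a 3′ IVT kit and hybridized to Affymetrix mouse arrays, with a single array for each condition. The authors deposited 1 intensity for each probe set, the linear-scale signal of MAS5 by the submitters' processing notes. With 2% cut from each tail, the mean of each array was 500.0. Further filters and a genome build are not given in the sources used here. Probe sets were named from the platform's annotation, which gave 34958 of 45101 a single gene and 932 several genes, and did not list 9211. Probe sets of several genes were used for no gene, and 10 genes of the pathway lists had no single-gene probe set used here. Gene symbols were looked up by Entrez identifier in RefSeq (GRCm38.p6) for 34754 probe sets, and 0 changed.

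The values were computed with pandas 2.3.3 and numpy 2.4.6 in Python 3.11.15, and with statsmodels 0.14.6 and matplotlib 3.10.9. Olfactory and vomeronasal receptor genes, known mainly from sensory neurons, gave the floor for dim signals: the 95th percentile of their 80 probe sets, taken on the array where it was higher. Signals under it were raised to it, a gene was read from its brightest probe set (by the mean of both arrays), and a gene was measured when at least 1 array was above the floor. No test was made, since neither condition has a second array, and precision is limited by that number. The genes and lists were chosen with earlier results of these data known. For each pathway list the 4 genes with the largest difference and any past 2-fold were named, with the defining genes of each marker list, Nr4a1, Thbs1, Gapdh and Actb. Genes outside this rule are marked as such. The alternatives were median-centring, quantile normalization, loess with a span of 30%, no floor, a floor 2 times as high, the floor as a pseudocount, the mean of a gene's probe sets, and leaving out probe sets with an _s, _x or _a suffix. The steps were tested on simulated data with planted differences past 2-fold. That test does not bear on differences as small as those of Abcg1 or Mylip. Promoters came from RefSeq windows of GRCm38.p6, read by gene symbol.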

Additional observations from a re-analysis of the deposited data

How the results depend on the processing

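None of the 8 genes reached a 2-fold difference in either direction under any of the 8 alternatives, and neither did any of their probe sets under the 7 that keep probe sets apart. The median log2 ratio of the genes, -0.10 as reported, ran from -0.17 to -0.06. Abca1, Abcg1, Mylip and Nr1h3 were below 0 and Pltp and Srebf2 above it under every alternative that measured them, Nr1h3 from -0.23 to -0.15 and Mylip from -0.37 to -0.32. Apoe and Srebf1 each changed sign once, to 0.01 and 0.01 after median-centring. Apoe, Srebf1 and Nr1h3 have no probe set without a suffix, so that alternative gave no value for them. Of Abcg1 the lowest value was -0.49, and -0.30 was reached with the mean of both probe sets. Mertk and Ch25h, whose alternatives were added after the data were seen, stayed past 2-fold under all 8, Mertk from 1.09 to 1.19. No paired analysis was possible because there is only a single array on either side. Without replicate arrays a difference of the size seen for Abcg1 or Mylip cannot be told apart from variation between arrays.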
